A study of Mus musculus with 8 samples.

Results

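Plasma protein and hepatoblast genes were compared between fetal liver cells sorted for the surface profile of blood stem cells that had, or had not, recombined their reporter under Flt3-Cre. The group is a list of 33 mouse genes in 8 classes: carriers, apolipoproteins, serpins, clotting proteins, heavy chains of the inter-alpha-trypsin inhibitor, complement and adhesion proteins, keratins and the transcription factor Hnf4a. Members were found by symbol, and 32 of the 33 matched a row among the 14268 rows of the authors' deposited table. Serpina1a matched no row and was not analysed here. The list was drawn up with earlier results of these data known, so its direction is not independent evidence.

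In the embryo, the liver holds epithelial hepatoblasts, the precursors of hepatocytes and bile duct cells, beside the blood-forming cells that lodge there for much of gestation. Hepatoblasts and hepatocytes secrete most proteins of the blood plasma, and liver-enriched transcription factors such as the HNF4, FOXA and C/EBP families act together at the promoters of those genes. Keratins 8 and 18 pair to form the intermediate filaments of simple epithelia, which include hepatocytes.

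All cells came from E14.5 fetal livers of embryos from Flt3-Cre mice crossed to mTmG mice, and all were sorted as lineage-, cKit+, Sca1+ and CD150+. The sample titles print Cd150 without a sign. The mTmG reporter makes the red protein Tomato until Cre switches it for good to GFP, so the GFP+ fraction (4 libraries) has a history of Flt3-Cre activity and the Tomato+ fraction (4 libraries) does not. The Cre marks a history and not the present level of Flt3, and both fractions share the cross, the age and the sort. The labels do not say how many embryos or sorting days stand behind a library, and the p-values can speak only for variation among the 8 libraries, some of it possibly technical.

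The authors deposited 1 mean per fraction for each gene, as normalized counts, with no value for a single library. No SD is given here for that reason, and whether single libraries of the fractions overlap was not examined. The depth of each library is unknown. Overall means ran from 2.47 to 59404 normalized counts over all rows, with a median of 214. A gene was called when the authors' adjusted p over all rows was under 0.05, and DESeq is the test tool that their notes list. Fold changes below are ratios of the authors' means, and log2 values are above 0 where the GFP+ mean was higher.

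Of the 32 plasma protein and hepatoblast genes with a row, 25 rose in GFP+ and 0 fell, and 7 did not pass the authors' adjusted p. The background was 4.86% of all rows called higher and 2.64% called lower. At an unadjusted p under 0.05, 30 of the 32 would have been called, 1 of them, Krt18, lower in GFP+. Over all rows, 2314 of 14268 had such a p, in either direction. The median log2 over the 32 genes was 2.33, beside 0.0095 over all rows, and 31 of the 32 had the higher mean in GFP+. Added up over the 32 genes, the authors' means came to 3908 normalized counts for GFP+ and 1354 for Tomato+, which was 0.0493% and 0.0190% of the sums over all rows. In sorted bulk samples, fewer cells of a type and less RNA per cell cannot be told apart.

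Most of these genes had low means. In Tomato+, 26 of the 32 lay under 20 normalized counts, and in GFP+ 27 lay under 100. Among the 27 members with an overall mean under 60, 21 rose, while 3.07% of the 3936 rows below that mean were called higher in GFP+, a limit set after the values were seen. The median log2 over those 3936 rows was -0.16, and over the 27 members it was 2.33.

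**Figure D1:**
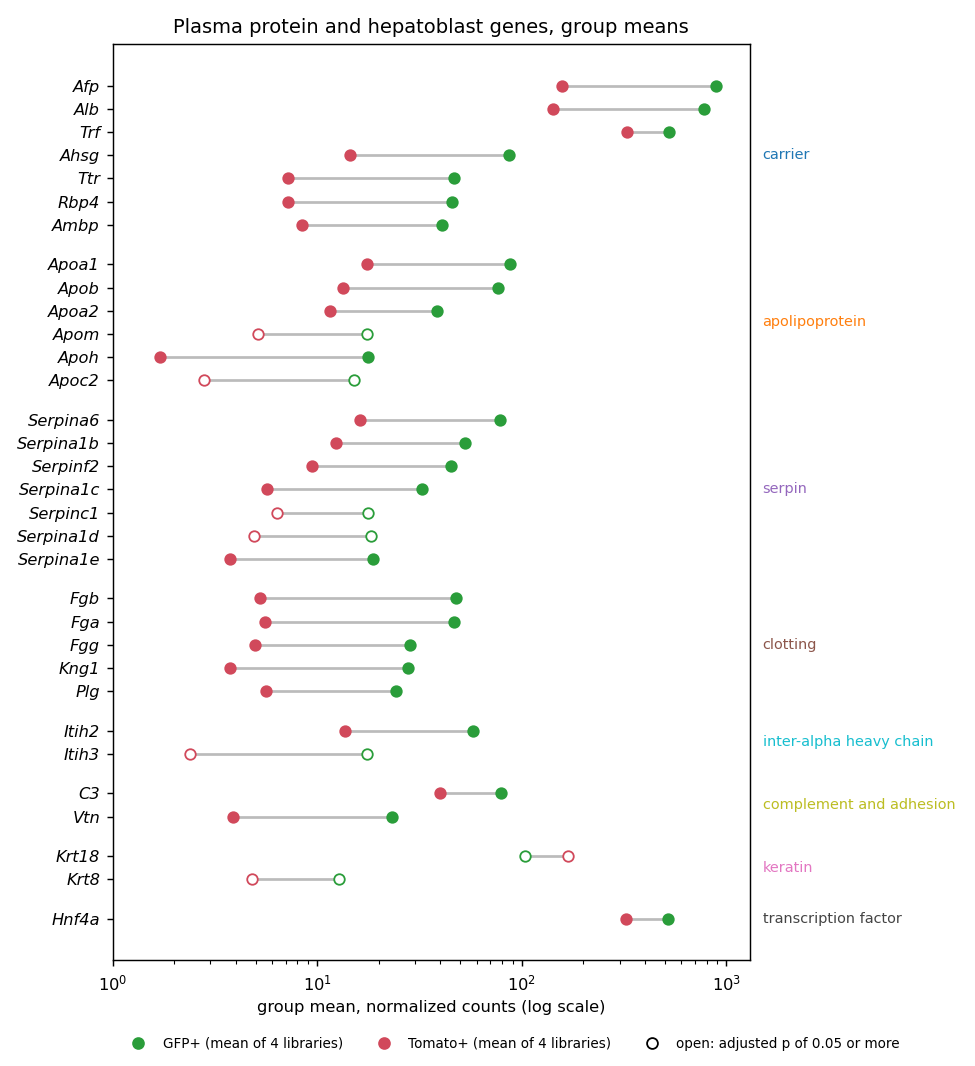
The authors' mean of each gene in GFP+ (green) and Tomato+ (red) is plotted in normalized counts on a log scale, by class, and open points mark genes with an adjusted p of 0.05 or more. The green point lies to the right in 31 of the 32 genes, and Krt18 is the exception.

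All 7 carrier genes rose in GFP+. Afp, the alpha-fetoprotein of fetal liver, was 5.62-fold higher in GFP+, with authors' means of 885 normalized counts against 157 (adjusted p = 3.59e-46, the authors' deposited table). Alb, the next gene on the chromosome, encodes albumin, the main plasma carrier of fatty acids, and had 774 and 142, 5.45-fold higher (adjusted p = 2.68e-46, the authors' deposited table). The neighbours thus differed by nearly the same factor.

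Trf, the iron carrier transferrin, stood apart from the other carriers, with authors' means of 526 in GFP+ and 325 in Tomato+. Its fold was 1.62 (adjusted p = 1.13e-04, the authors' deposited table). The smaller fold went with a Tomato+ mean above those of Alb and Afp. Ahsg, the calcification inhibitor fetuin-A, had authors' means of 86.5 and 14.4, 6.02-fold higher (adjusted p = 1.56e-07, the authors' deposited table). Ttr, the thyroid hormone carrier transthyretin, had 46.5 and 7.18, 6.48-fold higher (adjusted p = 1.05e-04, the authors' deposited table). Rbp4, the retinol carrier that travels bound to transthyretin, had 45.7 and 7.22, 6.33-fold higher (adjusted p = 9.93e-04, the authors' deposited table). The folds of these binding partners lay close together. Ambp, the precursor of alpha-1-microglobulin and bikunin, had 40.8 and 8.40, 4.86-fold higher (adjusted p = 0.00982, the authors' deposited table).

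The 150 bases before the RefSeq gene start are shown for 6 members, on the strand of the gene, with build GRCm38.p6 coordinates. They were chosen with the motif matches known, 5 with a C/EBP match in the stretch shown and Serpina1b without one. Alb, Afp, Ahsg and Fgb differed by 5.45-fold to 9.02-fold, Serpina1b by 4.23-fold and C3 by only 1.99-fold. Capitals mark matches to the C/EBP letters TTGCNNAA, on either strand.
Alb (chr5:90460720-90460869, plus strand): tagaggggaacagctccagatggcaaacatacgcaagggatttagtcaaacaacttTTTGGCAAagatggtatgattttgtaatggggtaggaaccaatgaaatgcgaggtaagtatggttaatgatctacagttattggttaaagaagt
Afp (chr5:90490564-90490713, plus strand): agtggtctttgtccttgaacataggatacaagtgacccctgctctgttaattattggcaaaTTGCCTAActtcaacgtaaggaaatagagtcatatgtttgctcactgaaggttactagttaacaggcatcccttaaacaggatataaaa
Ahsg (chr16:22891865-22892014, plus strand): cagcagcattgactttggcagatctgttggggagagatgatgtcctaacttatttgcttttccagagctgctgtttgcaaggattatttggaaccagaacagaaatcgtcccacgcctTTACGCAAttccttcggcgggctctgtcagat
Fgb (chr3:83049864-83050013, minus strand): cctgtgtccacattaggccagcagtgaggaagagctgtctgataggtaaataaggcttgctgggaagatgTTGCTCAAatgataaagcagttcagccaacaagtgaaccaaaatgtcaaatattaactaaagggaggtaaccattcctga
C3 (chr17:57228137-57228286, minus strand): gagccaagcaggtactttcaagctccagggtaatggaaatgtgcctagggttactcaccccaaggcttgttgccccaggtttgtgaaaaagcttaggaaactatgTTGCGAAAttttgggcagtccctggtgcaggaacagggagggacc
Serpina1b (chr12:103738190-103738339, minus strand): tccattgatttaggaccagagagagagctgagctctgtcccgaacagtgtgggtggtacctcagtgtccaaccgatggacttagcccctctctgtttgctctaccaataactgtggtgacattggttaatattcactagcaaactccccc
Matches were searched in the 250 bases before 31 starts of 28 member genes, and the table of all starts held 32851 such windows. The C/EBP letters occurred in 13 of the 31 windows (41.9%) and in 9.56% of all windows. The FOXA letters TGTTTAC were found in 3 windows (9.68%, against 3.17% of all windows), in Apoa2, Apoh and Rbp4. The HNF4 letters CAAAGTCCA were found in 0 of the 31 windows and in 0.384% of all windows, and the TATA box TATAAA in 5 (16.1%, against 12.4%). The 13 windows belong to 13 of the 28 genes. Serpina1b, Serpina1d and Serpina1e are among them, tandem copies with the same match TTGCTTAA, so the 13 are not independent cases. C3, with the smallest fold of the 6, held a C/EBP match, and the match of Serpina1b lay farther from the start than the stretch shown. These are matches of letters, not sites shown to be bound, and the expression files do not bear on binding. Their part in the difference between the fractions was not tested.

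Of 6 apolipoprotein genes 4 rose, and all 6 had the higher mean in GFP+, with a median log2 of 2.38. Apoa1, the main protein of high-density lipoprotein, was 5.01-fold higher in GFP+, with authors' means of 87.5 against 17.4 (adjusted p = 6.52e-07, the authors' deposited table). Apob, the scaffold of very-low-density lipoprotein, had 76.0 and 13.3, 5.72-fold higher (adjusted p = 3.59e-05, the authors' deposited table). Apoa2, also of high-density lipoprotein, had 38.5 and 11.6, 3.33-fold higher (adjusted p = 0.00706, the authors' deposited table). Apoa2 overlaps Tomm40l in RefSeq, and Tomm40l had authors' means of 361 and 323 and did not pass (adjusted p = 0.846, the authors' deposited table).

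Apoh, the phospholipid-binding beta-2-glycoprotein I, had the lowest Tomato+ mean of the 32 genes, on which its fold rests. Its authors' means were 17.7 and 1.70, 10.4-fold higher (adjusted p = 0.0295, the authors' deposited table). With a pseudocount of 10 added to both means, its log2 went from 3.38 to 1.25, below those of Afp (2.42) and Alb (2.37). Apoc2, the cofactor of lipoprotein lipase, had 15.0 and 2.78 and did not pass (log2 of 2.44, adjusted p = 0.137, the authors' deposited table). Apom, which carries sphingosine-1-phosphate in high-density lipoprotein, had 17.5 and 5.11 and did not pass (log2 of 1.78, adjusted p = 0.368, the authors' deposited table). Apoh and Apom had nearly equal GFP+ means, and their Tomato+ means set their folds apart.

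Of 7 serpin genes with a row 5 rose, all 7 had the higher mean in GFP+, and the median log2 was 2.26. Serpina6, the corticosteroid-binding globulin, had authors' means of 78.3 and 16.1, 4.86-fold higher (adjusted p = 1.89e-05, the authors' deposited table). Serpinf2, the plasmin inhibitor alpha-2-antiplasmin, had 45.2 and 9.44, 4.79-fold higher (adjusted p = 0.00586, the authors' deposited table). Serpinc1, the thrombin inhibitor antithrombin, had 17.6 and 6.37 and did not pass (log2 of 1.47, adjusted p = 0.223, the authors' deposited table).

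The Serpina1 genes are tandem copies that encode alpha-1-antitrypsin, an inhibitor of neutrophil elastase and other proteases. Serpina1b had the highest level of the 4 copies with a row, with authors' means of 52.5 and 12.4, 4.23-fold higher (adjusted p = 5.13e-04, the authors' deposited table). Serpina1c had 32.6 and 5.66, 5.76-fold higher (adjusted p = 0.00143, the authors' deposited table). The Serpina1c fold was the largest of the copies. Serpina1e had 18.7 and 3.73, 5.01-fold higher (adjusted p = 0.0213, the authors' deposited table). Serpina1d had 18.3 and 4.92 and did not pass (log2 of 1.89, adjusted p = 0.0653, the authors' deposited table). The 4 copies summed to 122 in GFP+ and 26.7 in Tomato+, 4.57-fold higher, and counting them once left the serpin median at 2.23.

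The sources used here do not say how reads shared by these copies were assigned, and the split among Serpina1b to Serpina1e is uncertain. Their coding sequences in GENCODE M21 were from 96.3% to 98.5% identical at aligned bases over the 10 pairs of the 5 copies, with identical runs of up to 728 bases. The 60 bases with the most differences, positions 1101 to 1160 of the Serpina1b coding sequence, are shown to set the copies apart, with the 18 positions at which the 5 copies differ in capitals. This stretch encodes the reactive centre loop, the part of a serpin that meets its target protease.
Serpina1a: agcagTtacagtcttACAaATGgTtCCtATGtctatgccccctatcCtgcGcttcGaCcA
Serpina1b: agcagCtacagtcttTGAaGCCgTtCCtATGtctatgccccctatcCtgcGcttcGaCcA
Serpina1c: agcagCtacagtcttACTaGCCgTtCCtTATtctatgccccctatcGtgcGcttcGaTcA
Serpina1d: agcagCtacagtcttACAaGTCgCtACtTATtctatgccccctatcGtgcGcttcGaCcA
Serpina1e: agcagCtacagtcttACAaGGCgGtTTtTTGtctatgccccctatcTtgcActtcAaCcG

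All 5 genes of clotting and fibrinolysis rose in GFP+, with a median log2 of 2.88. Fgb, Fga and Fgg encode the beta, alpha and gamma chains of fibrinogen and lie next to each other on the chromosome. Fgb was 9.02-fold higher in GFP+, with authors' means of 47.5 against 5.26 (adjusted p = 1.90e-05, the authors' deposited table). Fga had 46.6 and 5.56, 8.40-fold higher (adjusted p = 4.29e-05, the authors' deposited table). Fgg had 28.3 and 4.98, 5.68-fold higher (adjusted p = 0.00279, the authors' deposited table). The chains had close Tomato+ means, and Fgg had the lowest GFP+ mean of the 3.

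Kng1, the kininogen from which bradykinin is released, had authors' means of 27.7 and 3.75, 7.38-fold higher (adjusted p = 0.00828, the authors' deposited table). Plg, the precursor of the fibrin-cleaving protease plasmin, had 24.3 and 5.63, 4.31-fold higher (adjusted p = 0.0365, the authors' deposited table). Plg was the called member with the adjusted p closest to 0.05.

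Itih2 and Itih3 encode heavy chains of the inter-alpha-trypsin inhibitor, which are joined to bikunin and bind hyaluronan. Itih2 had authors' means of 57.8 and 13.7, 4.22-fold higher (adjusted p = 0.00143, the authors' deposited table). Itih3 had 17.5 and 2.38 and lay just outside the threshold (log2 of 2.88, adjusted p = 0.0513, the authors' deposited table). C3, the central component of complement, had 78.7 and 39.6, 1.99-fold higher (adjusted p = 0.0298, the authors' deposited table). Vtn, the adhesion protein vitronectin, had 23.1 and 3.87, 5.97-fold higher (adjusted p = 0.0224, the authors' deposited table). C3 thus joined Trf in a smaller fold and a higher Tomato+ mean than most secreted members.

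Neither keratin passed, and the pair had opposite signs. Krt8 had authors' means of 12.8 in GFP+ and 4.81 in Tomato+ (log2 of 1.41, adjusted p = 0.971, the authors' deposited table). Krt18, its neighbour on the chromosome, had 103 and 169 (log2 of -0.71, adjusted p = 0.0562, the authors' deposited table). Hnf4a, a nuclear receptor that drives many hepatocyte genes, had 520 and 323, 1.61-fold higher (adjusted p = 0.0325, the authors' deposited table). The Hnf4a fold was close to that of Trf and below those of 24 of the called members. Hnf4a overlaps the opposite-strand RNA gene Hnf4aos in RefSeq, and the sources used here do not say whether counting used strand.

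**Figure D2:**
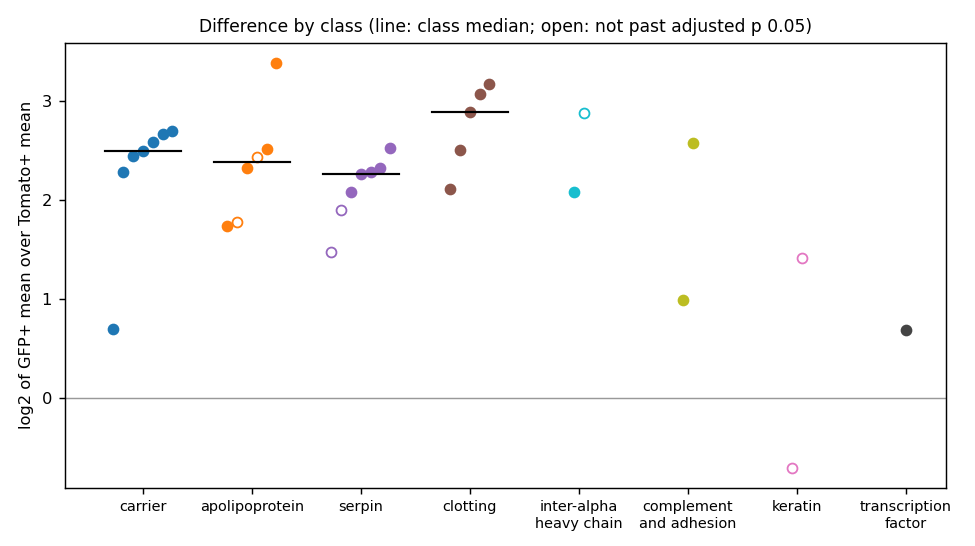
Each point is the log2 of the authors' GFP+ mean over the Tomato+ mean for 1 gene, by class, with a line at the class median where a class has more than 2 genes and open points for genes not past the adjusted p. Medians are 2.49 for carriers, 2.38 for apolipoproteins, 2.26 for serpins and 2.88 for clotting genes, and Krt18 is the point below 0.

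Class medians ran from 2.26 to 2.88 in the classes with at least 5 genes, and differences between classes were not tested, since the table gives no error for a gene's fold. Their order depends on the low means. With a pseudocount of 10 the medians were 1.72 for carriers, 1.45 for clotting genes, 1.44 for serpins and 1.21 for apolipoproteins. Summed over each class, the authors' means were 2405 in GFP+ and 662 in Tomato+ for carriers, a 3.64-fold difference in which Trf held much of the Tomato+ sum. The apolipoproteins, with no such member, summed to 252 and 51.9, 4.86-fold, and serpins to 263 and 58.6, 4.49-fold. Clotting genes summed to 174 and 25.2, 6.93-fold. Keratins summed to 116 and 174, and so were the class with the lower sum in GFP+.

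Set against Alb, most members kept their proportion from one fraction to the other to within a factor of 1.5. The folds of 21 of the 32 genes, Alb included, lay within 1.5 times that of Alb, a tolerance chosen after the values were seen. Together these 21 genes had 2482 normalized counts in GFP+ against 457, a 5.43-fold difference. Apoa1, for example, stood at 11.3% of the Alb mean in GFP+ and 12.3% in Tomato+, Ahsg at 11.2% and 10.1%, and Fgg at 3.66% and 3.50%. Afp stood at 114% and 111%. The 21 folds ran from 3.72 for Serpina1d, at 2.36% and 3.46%, to 7.38 for Kng1, at 3.57% and 2.63%. The other 11 genes fell outside. Fga, Fgb and Apoh had larger folds, and Trf, Hnf4a, C3, Krt18, Krt8, Apoa2, Apom and Serpinc1 smaller ones. Trf went from 228% of the Alb mean in Tomato+ to 67.9% in GFP+, Hnf4a from 227% to 67.1%, and Krt18 from 119% to 13.4%. Those proportions are levels of different genes that were not divided by length, and only their shift between fractions is compared.

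**Figure D3:**
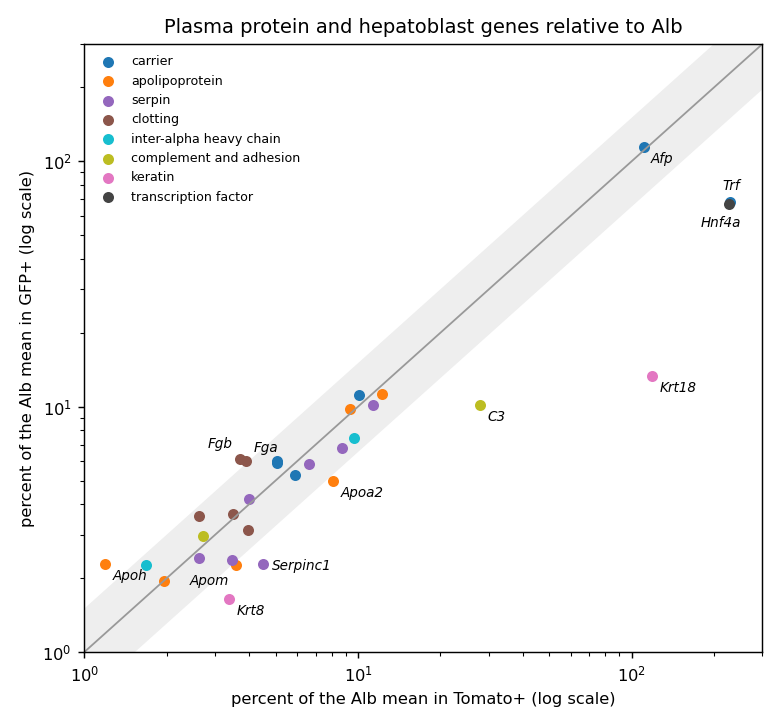
The mean of each gene as a percent of the Alb mean is plotted for Tomato+ on the horizontal and GFP+ on the vertical axis, both on log scales, with a line of equality and a grey band of 1.5 times to either side. Most genes lie in the band, while Trf, Hnf4a, Krt18 and C3 lie below it.

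Levels between genes were compared per kilobase of the longest protein-coding transcript in GENCODE M21. In GFP+, Afp was highest at 429 normalized counts per kilobase, then Alb at 381, Trf at 205, Hnf4a at 119 and Apoa1 at 84.5. In Tomato+ the order per kilobase was Trf at 126, Krt18 at 117, Afp at 76.3, Hnf4a at 74.1 and Alb at 69.9. Krt18 ranked 2 of 32 in Tomato+ and 7 of 32 in GFP+. The spread over libraries is not known, so neighbours in these orders were not tested.

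**Figure D4:**
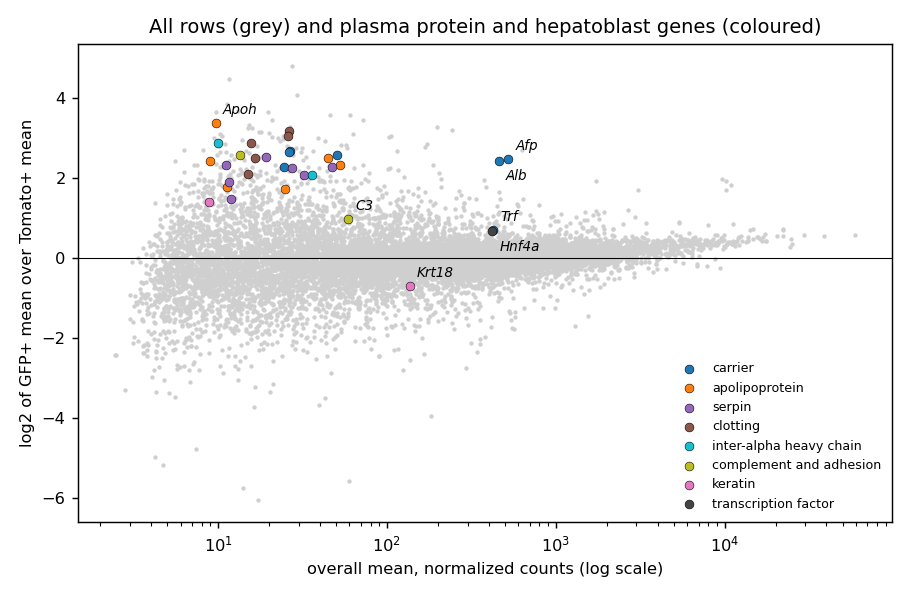
Grey points are all 14268 rows, with the overall mean in normalized counts on a log axis and the log2 of the GFP+ mean over the Tomato+ mean, and coloured points are the 32 plasma protein and hepatoblast genes by class. Of the 32 coloured points 23 lie above 2 on the log2 scale, and Afp, Alb, Trf and Hnf4a have the highest overall means.

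Other genes of the hepatocyte lineage were read from 4 lists, of which 58 gene entries of 150 matched a row. Of these 58, 1 rose and 8 fell in GFP+, beside the 4.86% and 2.64% of all rows. Of 18 other plasma protein genes 1 rose and 2 fell, with a median log2 of 0.09. The rise was Pzp, a protease inhibitor of the alpha-2-macroglobulin family named after its value was seen, with authors' means of 26.4 and 4.23 (adjusted p = 0.0132, the authors' deposited table). Apoe, an apolipoprotein that macrophages and other cells also make, fell 2.73-fold, and F5, clotting factor V, which megakaryocytes also hold, fell 2.09-fold in the authors' deposited table. Hc, which encodes complement C5 and was likewise named after its value was seen, had 14.1 and 2.14 and did not pass (adjusted p = 0.107, the authors' deposited table).

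Of 10 liver transcription factor genes besides Hnf4a, 0 rose and 1 fell by the authors' adjusted p (DESeq), with a median log2 of 0.0065. At an unadjusted p under 0.05 there were 2 of the 10, beside 2314 of all 14268 rows. Gata4, of early liver mesenchyme and endoderm, had authors' means of 0.521 in GFP+ and 14.2 in Tomato+ (adjusted p = 0.0423, the authors' deposited table). Cebpa, which also acts in myeloid cells, had 289 and 211 and did not pass (log2 of 0.45, adjusted p = 0.212, the authors' deposited table). Foxa3, a forkhead factor of hepatocytes that is also among the hepatoblast markers, had means of only 1.82 and 6.51 and did not pass.

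Of 13 hepatoblast surface and epithelial genes 0 rose and 3 fell by the authors' adjusted p (DESeq), with a median log2 of -0.74 and 3 at an unadjusted p under 0.05. Tfr2, transferrin receptor 2, matched by its older symbol Trfr2 and also made by erythroid cells, fell 4.10-fold, and Ocln, the tight junction protein occludin, fell 2.97-fold in the authors' deposited table. Tjp1, also of tight junctions, was the other fall. Of 17 genes of hepatocyte metabolism and growth 0 rose and 2 fell, with a median log2 of -0.06. An unadjusted p under 0.05 was found for 4 of the 17, and for 2314 of all 14268 rows. The falls were Igf2, a fetal growth factor, at 2.37-fold, and H19, the imprinted RNA beside it, at 1.64-fold in the authors' deposited table.

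Checked against hepatoblast markers, the secreted proteins and Hnf4a rose in GFP+ and the other marker genes did not pass. Of 14 hepatoblast markers with a row 9 rose, all of them among the members above. The 3 that are not members, Dlk1, Epcam and Foxa3, did not pass and had lower means in GFP+. Dlk1, a surface protein of hepatoblasts, had authors' means of 811 and 993, and Epcam, an epithelial adhesion protein, 9.34 and 17.1. Cdh1 and Foxa2 matched no row and were not analysed here.

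Markers of other cell types moved as well. Over all rows, 4.86% were called higher and 2.64% lower, and 2314 of 14268 had an unadjusted p under 0.05. Of 19 macrophage markers 13 rose and 0 fell, 15 had an unadjusted p under 0.05 and the smallest p-values were those of Cd5l and Marco, and with sums of 2913 in GFP+ and 1428 in Tomato+. Of 15 erythroid markers 12 rose and 1 fell, led by Hba-a2 and Hbb-b1, with sums of 39721 and 13088. Most genes of both lists thus moved the same way as the plasma protein genes. The erythroid fall was Gata1, with authors' means of 135 and 281 (adjusted p = 0.0210, the authors' deposited table). Epor and Klf1, and Lyz2 and Mrc1 among macrophage markers, also had lower means in GFP+ but did not pass. Hba-a2 and Hbb-b1 held most of the erythroid sum in GFP+, at 16122 and 15589. Of 14 endothelial markers 9 fell and 0 rose, led by Esam and Tie1, with sums of 2809 and 5294. Of 14 stem cell markers 11 fell and 0 rose, led by Mecom and Tek, with sums of 11207 and 16853. No gene of either list had the higher mean in GFP+, and 10 and 13 of them had an unadjusted p under 0.05. Of 13 lymphoid-primed and B lymphoid markers 10 rose and 0 fell, led by Ccr9 and Rag1, with 12 at an unadjusted p under 0.05 and sums of 7846 and 3210. Of 7 stellate and mesenchymal markers 0 passed, with 3 at an unadjusted p under 0.05, Pdgfrb and Reln the smallest, and sums of 388 and 350. No marker with a row had a group mean of 0, and neither had any other row. The lowest means over all rows were 0.255 in GFP+ and 0.995 in Tomato+. The part of these cell types in the difference of the plasma protein genes was not tested.

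**Figure D5:**
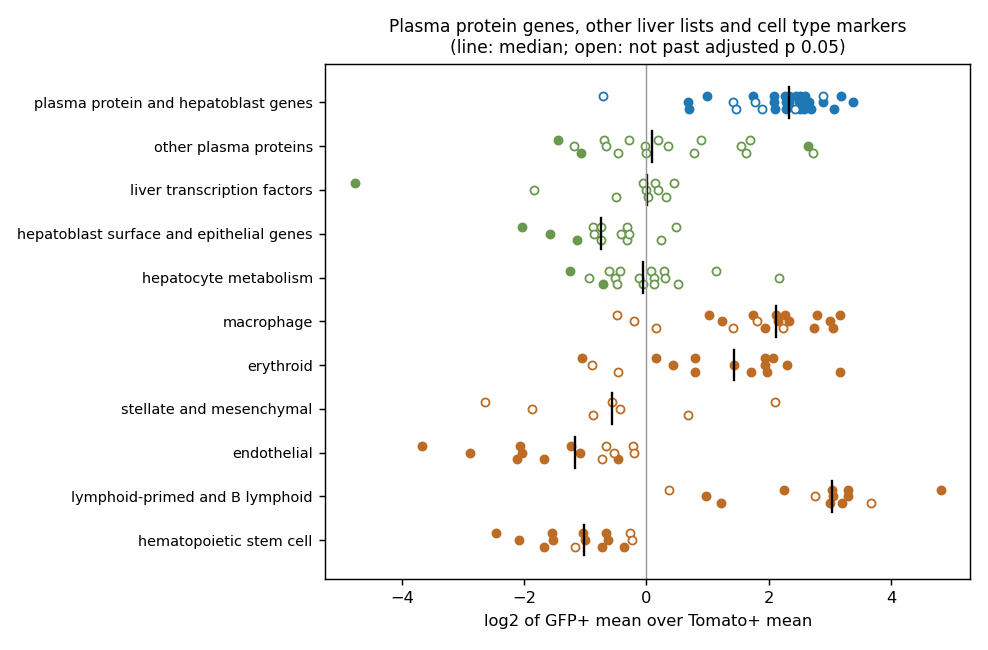
Each point is the log2 of the authors' GFP+ mean over the Tomato+ mean for 1 gene of the plasma protein and hepatoblast genes (blue), other hepatocyte lineage lists (green) and markers of other cell types (brown), with lines at list medians and open points for genes not past the adjusted p. The blue median is 2.33, the green medians lie from -0.74 to 0.09, and the brown medians run from -1.16 (endothelial) and -1.02 (stem cell) to 1.42 (erythroid), 2.12 (macrophage) and 3.03 (lymphoid-primed and B lymphoid).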

How the data were processed

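RNA of 8 libraries, 4 GFP+ and 4 Tomato+, was read from 1 table of the authors' own comparison. Per the submitters' processing notes, the authors used DESeq, bedtools, TopHat, TopHat2 2.0.11 and Bowtie2 2.2.1, and build mm9. The sources used here do not give the role or settings of each, the annotation or any filter. Per the file headers, the deposited values were a baseMean over all libraries and per fraction, a signal in normalized counts, a fold change (ratio), its log2, and p-values before and after adjustment. The adjusted p equalled a Benjamini-Hochberg adjustment over all 14268 rows within 5.28e-08. A repeated header line was dropped, and signs were turned so that positive means higher in GFP+.

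Members and lists were chosen with earlier results of these data known. Each gene was read from its row with the highest mean, and older symbols were looked up in RefSeq. The text names every member and, in each other list, the 2 genes with the smallest p, any other being named after its value was seen. Planned tests on values per library could not be run. A planned comparison of Serpina1 proteins was replaced by coding sequences. Some planned items are not reported here. The steps were tested on simulated data. Python 3.11.15 with pandas 2.3.3 was used.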

Additional observations from a re-analysis of the deposited data

How the results depend on the processing

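No paired analysis was possible because only means per fraction were at hand. The planned replicate block, DESeq2 size factors and omission of each library in turn need values per library and were therefore not run. With library depth unknown, the precision behind the many low means cannot be given. Against 25 members called higher and 0 lower, a Bonferroni adjustment over all rows left 10 higher, and a minimum overall mean of 50 left 7 higher among the 8 members above it, each by a stricter criterion. An adjusted p under 0.1 gave 27 higher and 1 lower, Krt18. Counts higher in GFP+ were 19 when the adjusted p had to be under 0.01 and 22 with a minimum log2 change of 1. They were 24 with a minimum mean of 10 and 25 with 1 row per symbol. The share of all rows called was not counted under any of these alternatives, so the counts have no background beside them. The median log2 of 2.33 became 1.40 with a pseudocount of 10, by construction of that scale at low means, 1.66 over the 8 members past a mean of 50, and 2.17 with both groups scaled to the same total, which lowers every log2 value by 0.16. The pseudocount also took the serpin median from 2.26 to 1.44 and the clotting median from 2.88 to 1.45, below the 1.72 of carriers, an alternative for classes chosen after seeing the data. Each member has 1 row in the table, so reading another row of the same symbol was not possible.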
